A study of Mus musculus with 2 samples.

Results

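The 189 widest intervals between neighbouring chromatin domain boundaries, each 1000 kb or longer, were described in a boundary map of mouse olfactory sensory neurons. They were chosen by a measured value, the distance between the midpoints of neighbouring boundary bins on each of the 19 autosomes, and make up 189 of 7150 autosomal intervals (2.64%). Length is therefore given as a description with no test. An interval of this kind is a stretch in which no boundary was listed. The list does not show whether it folds as 1 domain, and the stretches are called wide intervals here.

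The cells were olfactory sensory neurons expressing Olfr17 (also called P2), sorted by fluorescence from the olfactory epithelium of adult P2-GFP mice of strain 129P2/OlaHsd, males and females mixed, with no treatment per the labels. In situ Hi-C, which ligates DNA ends that lie near each other in the nucleus, was carried out with the enzyme DpnII on 2 biological replicates of 23000 and 20000 cells. Boundaries were called once by the authors, with the contacts of the replicates pooled, which leaves 1 list, no second cell type and no spread between animals. The depth is unknown, the identity of the cells could not be checked in a list of boundaries, and coordinates are those of the C57BL/6J reference (GRCm38), which is not the strain of the mice.

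Domain boundaries in mammals form mainly where cohesin, which extrudes loops of chromatin, is stopped by the DNA-binding protein CTCF, and to a lesser degree at active promoters. Gene deserts are long stretches with few or no protein-coding genes, and those around developmental genes are known to hold distant enhancers. Tandem gene families arose by repeated local duplication, so that their copies are alike in sequence and short reads from them can be hard to place.

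CTCF binds an asymmetric motif, and the motifs at the ends of a loop often point towards each other. The sequences below are the matches to a CTCF core consensus nearest to flanking boundaries of intervals described in the text, and show which letters lie at the ends of a desert and of a tandem family. Each has 40 bases of GRCm38, written 5′ to 3′ along the strand of the match, with the 12 bases of the core in capitals. They are matches of letters and not measured binding.
Longest desert, left flank, chr12:17847904-17847943, minus strand: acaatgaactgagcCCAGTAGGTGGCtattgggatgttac
Longest desert, right flank, chr12:21094146-21094185, minus strand: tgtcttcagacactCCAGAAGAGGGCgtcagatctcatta
Longest tandem family interval, left flank, chr14:41035338-41035377, minus strand: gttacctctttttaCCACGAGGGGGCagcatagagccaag
Longest tandem family interval, right flank, chr14:44784155-44784194, plus strand: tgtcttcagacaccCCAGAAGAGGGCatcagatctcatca
Nr2f2 desert, left flank, chr7:68843552-68843591, plus strand: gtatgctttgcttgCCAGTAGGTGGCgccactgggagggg
Mup interval, left flank, chr4:59927314-59927353, minus strand: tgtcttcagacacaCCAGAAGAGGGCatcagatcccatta
Mup interval, right flank, chr4:62261929-62261968, plus strand: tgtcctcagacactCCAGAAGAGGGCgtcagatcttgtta
Mef2c desert, right flank, chr13:83667588-83667627, minus strand: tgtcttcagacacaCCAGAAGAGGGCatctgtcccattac
Cdh11 desert, right flank, chr8:104087253-104087292, minus strand: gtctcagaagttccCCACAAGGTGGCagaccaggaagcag
Ins1 desert, right flank, chr19:52977173-52977212, minus strand: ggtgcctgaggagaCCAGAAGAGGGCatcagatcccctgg

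Of these matches, the one at the right flank of the longest desert lay in an intron of Asap2, the one at the right flank of the Ins1 desert in an intron of Xpnpep1, and the one at the left flank of the Nr2f2 desert in an exon of the gene model Gm34664. The other 7 overlapped no annotated gene. The match at the Ins1 desert was 0.308 kb from the boundary midpoint, that at the Nr2f2 desert 3.93 kb and that at the left flank of the Mup interval 30.2 kb. At the longest desert the left and right distances were 15.4 and 1.67 kb, and at the longest tandem family interval 12.1 and 13.3 kb. At the right of the Mup interval the distance was 14.4 kb, at the Mef2c desert 4.89 kb and at the Cdh11 desert 9.77 kb. At the other flanks, not printed, it was 163 kb (Nr2f2), 88.7 kb (Ins1), 21.8 kb (Cdh11) and 20.7 kb (Mef2c). Several of the printed matches shared not only the core letters CCAGAAGAGGGC but also flanking bases such as tgtcttcagacac, and how often these core letters occur in wide intervals is given with the CTCF matches.

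The wide intervals covered 267 of 2389 Mb between autosomal boundaries (11.2%). Their median length was 1210 kb, against 260 kb over all autosomal intervals, and 51 reached 1500 kb, 18 reached 2000 kb and 5 reached 3000 kb. Every autosome held some, with 9.95 ± 4.87 per autosome (SD, n = 19 autosomes) and from 4 on chromosomes 11 and 19 to 21 on chromosome 1. At the limit itself, 3 intervals measured 1000 kb and held between 1 and 6 protein-coding transcription start sites (TSSs), among them those of Igfbp5 and Tnp1 on chromosome 1 and of Fam19a5 on chromosome 15. Just outside it, 5 intervals measured 990 kb, and all 5 held no protein-coding TSS.

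The intervals were sorted by the genes with a TSS inside. A tandem family interval held at least 5 genes that share the letters of their symbol before the first digit, and a desert was any other interval with at most 1 protein-coding TSS per Mb. Deserts numbered 120 of 189 (63.5%, 95% Wilson interval 56.4 to 70.0%, counting error only). Tandem family intervals numbered 20 (10.6%, 6.96 to 15.8%), and the other 49 intervals (25.9%, 20.2 to 32.6%) held more than 1 protein-coding TSS per Mb and no such family. Among the 6961 narrower intervals, deserts made up 22.6% and tandem family intervals 3.35%. A narrower interval has less room for 5 genes and meets the limit on density with fewer genes, so that these shares move with length by construction.

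How well short reads could be placed differed between the classes. Simulated reads of 100 bases were mapped back to the reference, and the share that mapped uniquely had a median of 87.7% in wide and 93.0% in narrower intervals. In deserts the median was 88.1%, in the tandem family intervals 39.1% (range 11.2 to 87.3%) and in the remaining class 88.5%. Fewer than 50% of reads were unique in 20 wide intervals and in 12 of the 6961 narrower ones. Of the 10 longest wide intervals, 9 were under 50% unique and 6 were tandem family intervals. Wide intervals also held 39.8% of the unsequenced bases (N) of all intervals, although only 9 had more than 5% N. The part of read uniqueness in where the list has no boundary was not tested, and the main densities, scores and counts are therefore also given for the 155 wide intervals with at least 80% unique reads, of which 115 (74.2%) were deserts and 3 (1.94%) tandem family intervals.

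**Figure D1:**
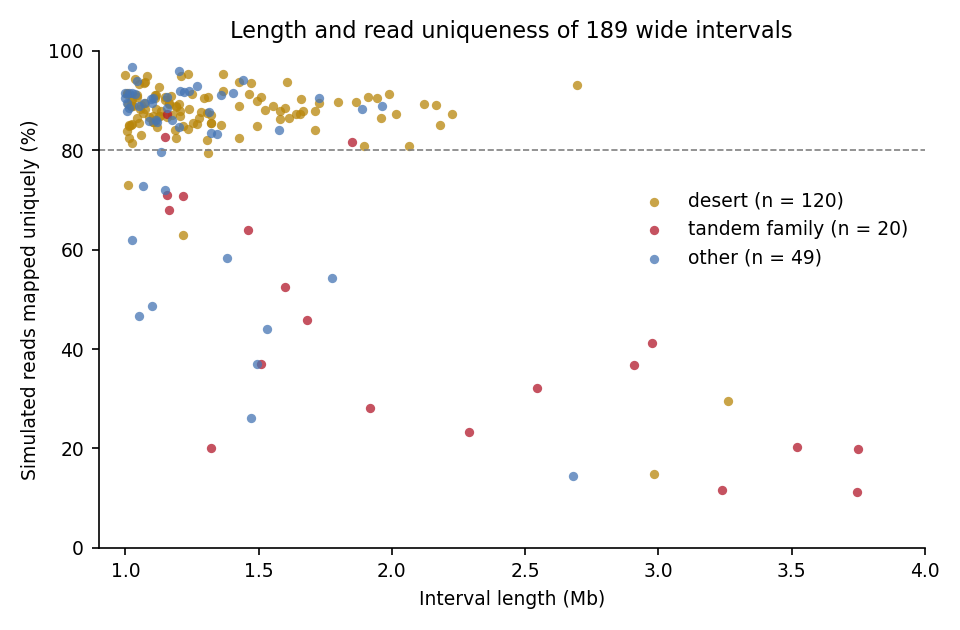
Each point is 1 of the 189 wide intervals, with its length in Mb on the horizontal axis and the percentage of simulated reads that mapped uniquely on the vertical axis, coloured by class. The dashed line marks 80%. Most deserts lie above it at lengths under 2.5 Mb, while 17 of the 20 tandem family intervals lie below it, and 9 of the 10 longest intervals lie under 50%.

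Wide intervals were poor in protein-coding genes. They held 932 of 20621 protein-coding TSSs (4.52%) in 11.2% of the length, or 3.53 TSSs per sequenced Mb against 9.30 in narrower intervals, a ratio of 2.64. Over autosomes the density was 3.30 ± 3.11 per Mb in wide and 9.38 ± 2.71 in narrower intervals (SD, n = 19 autosomes), and it was lower in wide intervals on 18 of 19. The exception was chromosome 9, with 11.5 against 9.80 TSSs per Mb, where 1 of the 5 wide intervals is an olfactory receptor cluster with 46 protein-coding TSSs. The classes ranged from 0.435 TSSs per Mb in deserts through 4.09 in the remaining class to 15.2 in the tandem family intervals, which is above the density of the narrower intervals. That deserts lie below the remaining class is set by the class limit, and the family rule also favours intervals with many genes. Counted in intervals with at least 80% unique reads, the density was 1.24 per Mb in wide and 9.08 in narrower ones.

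Over classes of interval length the density of TSSs fell from 19.2 per Mb in intervals under 150 kb to 2.38 in those of 1000 to under 1500 kb, and was 5.29 in those of 1500 kb or more. In intervals with at least 80% unique reads it went on down, to 1.47 and 0.724 per Mb in the last 2 classes. Long non-coding genes differed less: lincRNA genes numbered 1.40 per Mb in wide and 2.27 in narrower intervals, and deserts held 192 of them. Deserts were therefore not empty of annotation, with 1240 genes of any type in 120 intervals. Protein-coding gene bodies covered a median of 13.8% of a wide interval and 52.2% of a narrower one. The median GC content was 38.4% against 42.9%, and repeats masked in the reference covered a median of 39.2% against 30.1%.

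**Figure D2:**
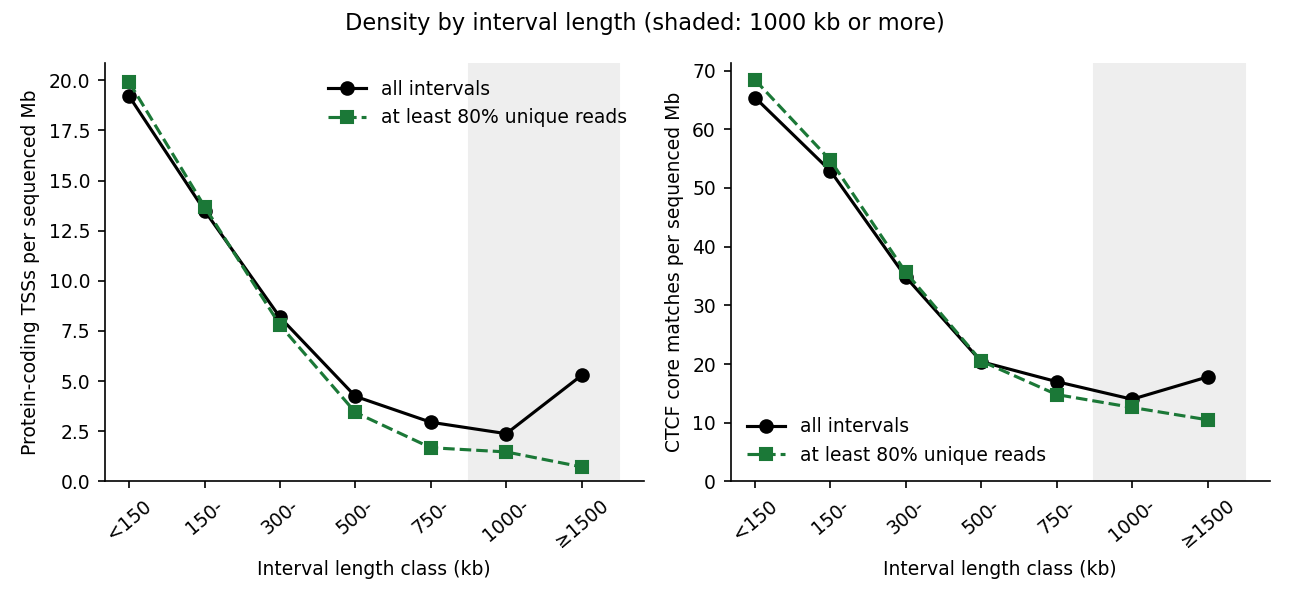
Protein-coding TSSs per sequenced Mb (left) and matches to the CTCF core consensus per sequenced Mb (right) in 7 classes of interval length in kb, for all autosomal intervals (black) and for those with at least 80% unique reads (green). The shaded classes are the wide intervals. Both densities fall with length up to 1500 kb. In the last class they are higher again among all intervals, at 5.29 TSSs and 17.8 matches per Mb, and not among those with at least 80% unique reads, at 0.724 and 10.5.

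Among the 120 deserts, 54 held no protein-coding TSS and 62 held exactly 1. The longest, at chr12:17832501-21092500, spanned 3260 kb between boundaries of score 2.42 and 0.598 and held 5730507C01Rik, Gm21863 and Asap2, but only 29.6% of simulated reads were unique there. The nearest protein-coding TSSs outside it were those of Hpcal1 at 142 kb and Cpsf3 at 193 kb. The next, at chr12:21462501-24447500, spanned 2985 kb with 14.8% unique reads, held Gm10330 and 9030624G23Rik, and lay between Ywhaq at 44.9 kb and Taf1b at 50.9 kb. Both of these stretches of chromosome 12 were thus ones in which most short reads could not be placed. They were poor in protein-coding TSSs only, with 104 and 71 genes of any type. Their CTCF core matches numbered 36.5 and 37.5 per Mb, against 11.7 over all deserts and 38.0 in narrower intervals.

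The longest desert with well-placed reads was a different kind of locus. It spanned 2695 kb at chr7:68847501-71542500 with 93.2% unique reads, and held Nr2f2, a nuclear receptor of developing heart, vessels and brain, and the gene model Gm10295. The TSS of Nr2f2 lay 1519 kb from the left and 1176 kb from the right boundary. The boundary on the left, towards Arrdc4, had a score of 0.877, and that on the right, towards Mctp2 at 764 kb, had 0.245. On chromosome 4, a desert of 2225 kb with no protein-coding TSS ended 10.6 kb from the TSS of Epha7, a receptor of axon guidance, at a boundary of score 0.581. On its other side the nearest TSS, that of Manea, lay 231 kb beyond a boundary of score 1.92. On chromosome 18, a desert of 2180 kb held Cbln2, which organises synapses, and Gm5096, with Neto1 at 158 kb outside on the left and Socs6 at 195 kb on the right.

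The lone genes of the 62 deserts with 1 protein-coding TSS included regulators of growth and development, adhesion molecules and a few genes of about 1 kb. All 62 of these deserts had at least 80% unique reads. Of the lone genes, 18 were at least 500 kb long and 14 were under 50 kb. The genes described next were picked after their values were seen. Ins1, which encodes insulin in the pancreas, stood alone in the widest of them, 2165 kb, with its TSS 1452 kb from a boundary of score 0.259 and 713 kb from one of score 2.40. Myc, a transcription factor that drives cell growth, stood 163 kb from the left end of an interval of 1910 kb and 1747 kb from its right end, between scores of 0.281 and 0.609. Mef2c, a transcription factor of muscle and neurons, stood 1697 kb from the left and 168 kb from the right end of an interval of 1865 kb, between scores of 0.902 and 1.40. Both genes thus lay near 1 end, with over 1500 kb of the desert to 1 side.

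Other genes lay farther inside. The 71 protein-coding TSSs in deserts had a median distance of 285 kb to the nearer flank, and 16 of them (22.5%) lay within 100 kb. Slitrk1, a synaptic adhesion protein, stood 757 kb from the left and 903 kb from the right end of an interval of 1660 kb, and its relative Slitrk5 stood 613 and 967 kb from the ends of one of 1580 kb. Over all wide intervals the median distance from TSS to nearer flank was 383 kb, against 55.5 kb in narrower ones, and the length limit by itself allows larger distances. The protein-coding genes that started in deserts had a median length of 169 kb, against 17.6 kb over all autosomal protein-coding genes.

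**Figure D3:**
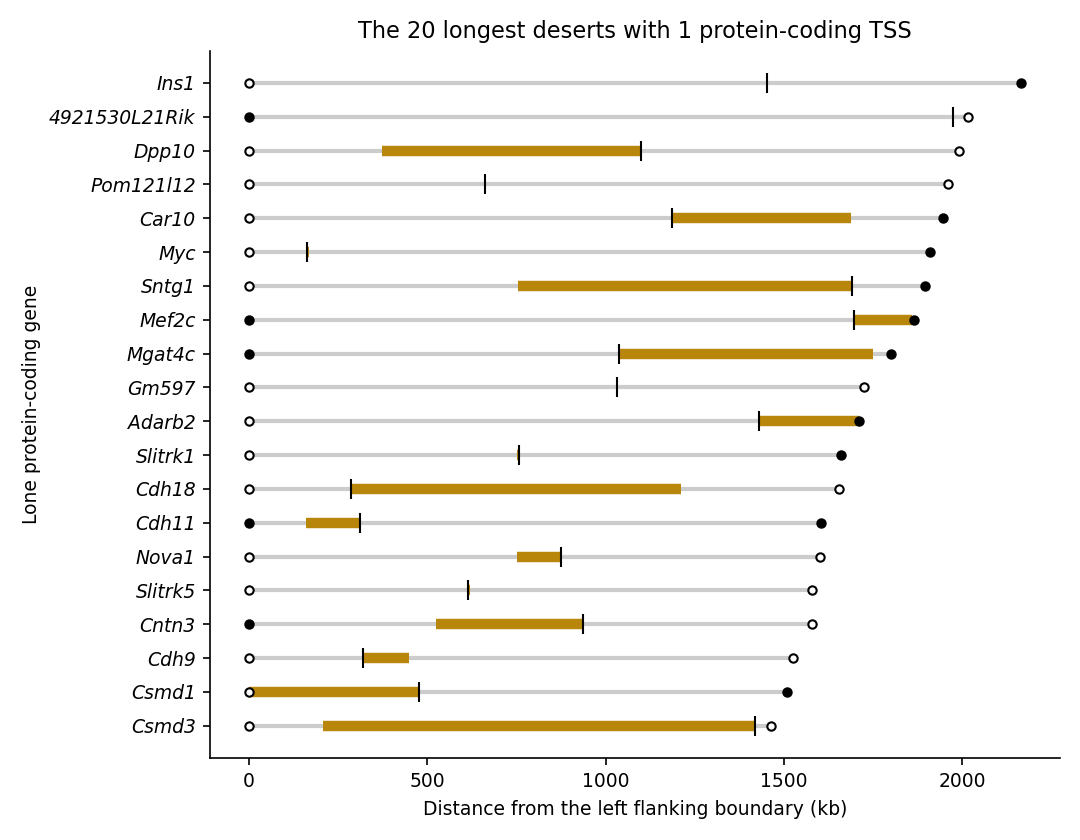
The 20 longest deserts with 1 protein-coding TSS, each a grey line drawn to scale from its left flanking boundary, with the distance in kb on the horizontal axis. The black tick is the TSS of the lone gene, the gold bar the part of its body inside the interval, and circles are the flanking boundaries, filled where the authors called them Strong. The Myc TSS lies 163 kb from the left end and the Mef2c TSS 168 kb from the right end, while Slitrk1 and Slitrk5 lie near the middle.

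Gene groups differed in how many of their members started in wide intervals, and several were near the share of all genes. Over all autosomal protein-coding genes the share was 4.52%, and 0.344% started in deserts. Of 33 cadherins outside the clustered protocadherins, which join cells by calcium-dependent adhesion, 8 (24.2%) did, and all 8 were the only protein-coding gene of a desert. By the class limit a desert under 2000 kb, as all of theirs were, can hold only 1 protein-coding TSS. The same holds for the adhesion genes below. These 8 cadherins were, from the farthest to the nearest to a flank, Cdh8, Cdh13, Cdh9, Cdh11, Cdh10, Cdh19, Cdh18 and Pcdh17. The Cdh8 TSS lay 564 kb from the nearer flank and that of Pcdh17 lay 26.1 kb from it. Cdh9 and Cdh10 stood in neighbouring wide intervals of 1525 and 1190 kb on chromosome 15 that share a boundary of score 0.247. Cdh11 stood in an interval of 1605 kb, 313 kb from a boundary of score 0.547 and 1292 kb from one of score 1.07.

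Of 55 genes of synaptic and axonal adhesion, 6 (10.9%) started in wide intervals, namely Slitrk1, Cntn3, Slitrk5, Lrrtm1, Cntn6 and Lrrtm4, 5 of them alone in a desert. Of 41 glutamate and GABA-A receptor subunits there were 4 (9.76%), among them Gria2, Gria4 and Grm3. Gria2, an AMPA receptor subunit, shared an interval of 1890 kb with Glrb and Pdgfc, 775 kb from the nearer flank. Of 65 axon guidance genes there were 4 (6.15%), Unc5c, Unc5d, Epha4 and Sema6d, and 3 of them started close to a flank, Unc5d at 32.9 kb, Epha4 at 12.4 kb and Sema6d at 2.53 kb. For the axon guidance genes this was near the 4.52% of all protein-coding genes. Of 170 developmental transcription factors there were 11 (6.47%), also near it, and 3 of them were in deserts. Those far from a flank included Nr2f2, Foxa2, Irx1, Sox11, Irx2, Lmo3 and Foxc1, and Irx1 and Irx2 shared an interval of 1440 kb that held no other protein-coding TSS.

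The remaining groups ranged widely. None of 30 genes of olfactory neuron signalling and identity started in a wide interval, a list so short that few would at the share of all genes. Of 78 cytosolic ribosomal protein genes 1 (1.28%) did, the testis paralog Rpl10l. Of 1086 protein-coding olfactory receptor genes 51 (4.70%) did, near the share of all genes, and Olfr17 was not among them. Of 322 vomeronasal receptors, which detect pheromones, 102 (31.7%) did, and of 383 zinc finger genes named Zfp 35 (9.14%). In wide intervals with at least 80% unique reads there were 0 of these vomeronasal and 0 of these Zfp genes, 43 of the 51 olfactory receptor genes, and 251 of the 932 protein-coding genes of all kinds. All members of the other lists that started in wide intervals did so in these. No gene of the olfactory receptor, vomeronasal and Zfp lists lay in a desert, whose definition leaves out intervals with 5 or more genes of a family. The lists hold from 30 to 1086 genes, their members are neighbours in part, and the shares are descriptions of 1 map.

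Some wide intervals lay within single long genes. In 26 of 189 (13.8%) the body of 1 protein-coding gene covered at least 50% of the interval, against 26.5% of the narrower ones, and 22 of the 26 were deserts. Such cover takes at least 500 kb of gene body in a wide interval and less in a narrower one, so these shares move with length by construction. Ordered by the share covered, the 26 were led by Magi2, Macrod2 and Gpc5, whose bodies covered 100% of intervals of 1110, 1470 and 1020 kb that held no protein-coding TSS. Magi2 encodes a synaptic scaffold protein and Gpc5 a cell surface proteoglycan. Nrxn3, a presynaptic adhesion protein, covered 84.8% of an interval of 1365 kb. Rbms3, Csmd3 and Naaladl2 covered 84.7, 82.7 and 79.0% of theirs. The boundaries of the Magi2 interval had scores of 0.444 and 0.290, those of the Macrod2 interval 0.254 and 0.220, and those of the Gpc5 interval 0.497 and 0.236, so all 6 were of the authors' class Weak, which holds scores under 0.5. Of 218 autosomal protein-coding genes of at least 500 kb, 25 (11.5%) had their TSS in a wide interval, against 4.52% of all protein-coding genes and beside the 11.2% of the length that wide intervals cover.

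The 20 tandem family intervals held 611 protein-coding TSSs in 42.2 Mb. Each was named by its most numerous family. The T cell receptor interval of chromosome 14 thus does not count as chemosensory here, although it also held 7 olfactory receptor genes. Chemosensory receptors took 6 of the 20, 5 with vomeronasal receptor genes and 1 with olfactory receptor genes. The longest of these ran over 3745 kb at chr7:19972501-23717500 and held 68 vomeronasal genes and pseudogenes from Vmn1r91 to Vmn1r173, with 94 protein-coding TSSs, flanking scores of 0.792 and 0.210, and 11.2% unique reads. Another on the same chromosome, at chr7:6942501-10462500, held 43 from Vmn2r-ps35 to Vmn1r67, and its right boundary, of score 0.441, was also the left boundary of an interval of 1600 kb with 20 more, from Vmn1r-ps49 to Vmn1r77. The remaining vomeronasal intervals held 11 on chromosome 13, all pseudogenes from Vmn2r-ps95 to Vmn2r-ps109, and 13 on chromosome 6, from Vmn2r19 to Vmn2r27.

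The olfactory receptor interval was one of the few tandem family intervals in which reads could be placed. It lay at chr9:37672501-38827500, held 55 receptor genes and pseudogenes from Olfr160 to Olfr923, and had 87.3% unique reads. Its left boundary had a score of 1.32 and lay 3.27 kb from the TSS of Panx3 outside. Its right boundary, of score 0.450, lay within the receptor cluster, 0.955 kb from the TSS of Olfr923 inside and 16.9 kb from that of Olfr924 outside. In all, 64 of 1399 autosomal olfactory receptor genes of any type (4.57%) lay in wide intervals, 55 of them here, 7 beside the T cell receptor segments on chromosome 14 and 2 on chromosome 13. The prolactin family (20 genes, Prl3d1 to Prl2c1, chromosome 13, 82.7% unique reads) and the Skint family of immune epithelial genes (9 genes, Skint8 to Skint6, chromosome 4, 81.6%) were the others at or above 80%.

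Families of secreted proteins made up a further group. The longest wide interval of all, at chr14:41047501-44797500, spanned 3750 kb with 79 protein-coding TSSs, beginning with Dydc2, Dydc1, Mat1a, Sftpa1 and Mbl1. Its family by the symbol rule was that of the eosinophil-associated ribonucleases (9 genes and pseudogenes, Ear-ps12 to Ear2), of which only 3 were protein-coding. Many further genes had only Gm names, and 19.9% of reads were unique. Alpha-defensins, antimicrobial peptides of the gut, had 38 genes and pseudogenes from Defa-ps12 to Defa-ps11, 22 of them protein-coding, in 2975 kb on chromosome 8, between scores of 1.09 and 0.815. Secretoglobins, of which some are pheromone binding proteins of saliva, had 64 genes and pseudogenes from Scgb1b1-ps to Scgb1b30, 29 of them protein-coding, in 2910 kb on chromosome 7, between scores of 2.12 and 0.757. Major urinary proteins, which carry pheromones in urine, had 43 genes and pseudogenes from Mup4 to Mup21, 22 of them protein-coding, in 2290 kb on chromosome 4. The boundary on the left of the Mup interval had a score of 2.39 and that on the right 0.279.

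The remaining families were of several kinds. Zinc finger genes filled an interval of 3240 kb on chromosome 2 with 10 from Zfp968 to Zfp931, between scores of 0.2 and 0.791, and one of 2545 kb on chromosome 4 with 17 from Zfp980 to Zfp933. Antigen receptor segments filled one of 1680 kb on chromosome 14 with 128 T cell receptor alpha variable segments, Trav1 to Trav23, and one of 1165 kb on chromosome 6 with 67 immunoglobulin kappa segments, Igkv10-96 to Igkv5-45. The latter had no protein-coding TSS, and its flanking scores of 0.216 and 0.338 were both Weak. Further intervals held genes and pseudogenes of the oocyte homeobox family (51, of which 6 protein-coding, Obox4-ps1 to Obox6), the sulfotransferases (10, of which 6, Sult2a5 to Sult2a6), the chemokines (7, of which 5, Ccl27a to Ccl21a) and the cathepsins (6, of which 4, Cts6 to Cts3). The rule by symbol misses families without a common name. The longest interval of the remaining class, 2680 kb on chromosome 5 with 14.5% unique reads, held 28 protein-coding TSSs, from Gm16427, C87414, Gm7792, Gm16429 and BC061212 on, and mostly such names, between scores of 0.390 and 1.43.

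In each class of wide intervals the gene density was higher within 50 kb of a flank than beyond 500 kb. In intervals with at least 80% unique reads, the density of protein-coding TSSs was 2.90 per Mb within 50 kb of a flank, 1.61 from 50 to 100 kb and 0.736 beyond 500 kb. In deserts it was 0.833 per Mb within 50 kb and 0.394 beyond 500 kb, from 10 and 17 TSSs. In the tandem family intervals it was 23.0 per Mb within 50 kb and 13.6 beyond 500 kb, and in the remaining class 7.96 and 4.21. Over the same classes of distance, the share of unique reads in the tandem family intervals went from 78.3% to 18.6%, while in deserts it was 84.2% at the flanks and 81.3% beyond 500 kb. Pooled over the tandem family intervals, most reads could thus be placed near the boundaries and most could not beyond 500 kb, where the longest intervals weigh most. From 100 to 200 kb the pooled share was still 65.0%, and from 200 to 350 kb it was 52.8%. As wholes, 12 of the 20 were under 50% unique. The part of read placement in their width was not tested.

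**Figure D4:**
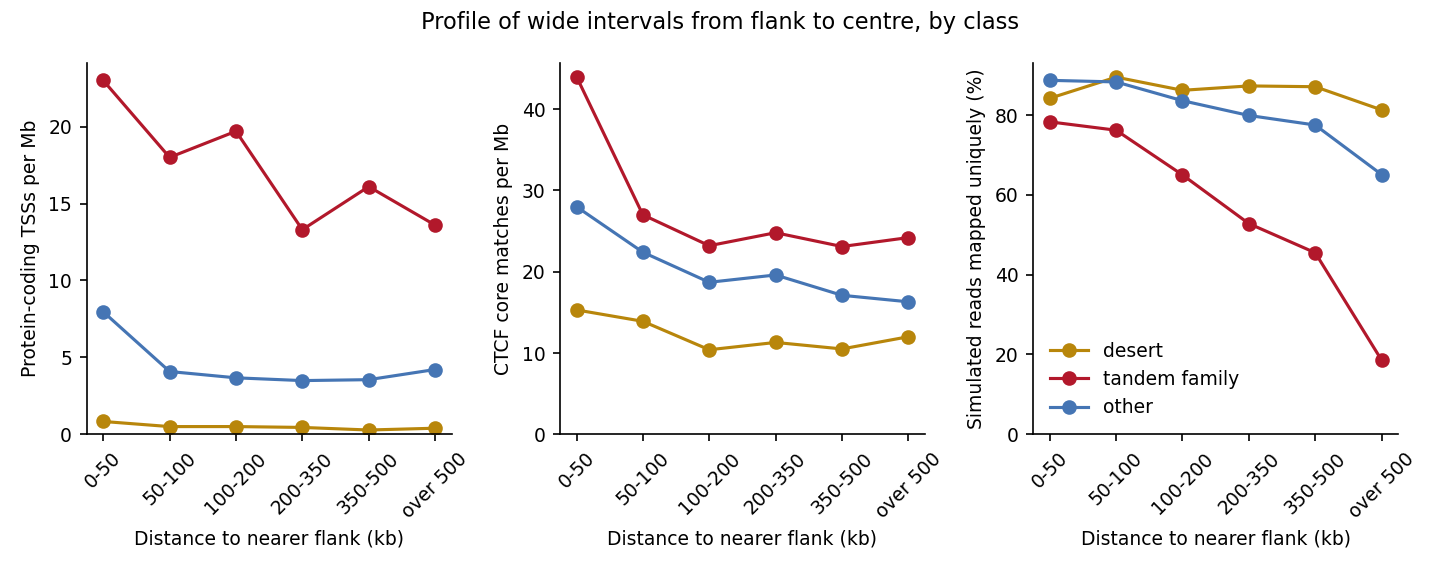
Protein-coding TSSs per sequenced Mb (left), CTCF core matches per sequenced Mb (middle) and the percentage of simulated reads mapped uniquely (right) in 6 classes of distance in kb to the nearer flanking boundary, pooled over the 120 deserts, 20 tandem family and 49 other wide intervals. Unique reads fall from 78.3% to 18.6% in tandem family intervals and stay above 80% in deserts.

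The flanking boundaries were weaker than other boundaries around deserts and not around tandem families. The 189 intervals had 367 different flanking boundaries, since 11 lay between 2 wide intervals. Their authors' score, a value without a stated unit never under 0.2, had a median of 0.430 (quartiles 0.262 and 0.877), against 0.569 for the other 6802 autosomal boundaries. The authors' class Strong, which in the values is a score of at least 0.5, held 161 of them (43.9%, 95% Wilson interval 38.9 to 49.0%), against 54.6% of all autosomal boundaries. By class, 34.5% of the 235 boundaries beside deserts were Strong, with a median score of 0.343, against 60.5% and 0.707 for the 38 beside tandem family intervals and 60.4% and 0.642 for the 96 beside the remaining class. A boundary between intervals of different classes counts under both. At the wide intervals with at least 80% unique reads, the median score was 0.395 and 39.9% of 303 boundaries were Strong.

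Both tails of the score were fuller at wide intervals than at all other boundaries pooled. Scores under 0.3 made up 34.1% of the flanking and 21.8% of the other boundaries, and scores of 2 or more made up 7.08% and 3.75%. This was not particular to wide intervals, since beside intervals of 750 to under 1000 kb the 2 shares were 32.4% and 6.21%. Beside intervals under 150 kb they were 29.2% and 2.26%. Among Strong boundaries alone the median was 1.04 at wide intervals and 0.938 elsewhere, and among Weak ones 0.280 and 0.305. The highest flanking score, 3.87, was at the left of an interval on chromosome 7 that held Gm5591, Gm5114 and Zfp619. The share of Strong flanks by length was 44.9% for intervals under 150 kb, near that of wide intervals, 58.0% for intervals of 150 to under 300 kb, 55.9% for 300 to under 500 kb, 50.4% for 500 to under 750 kb, 42.1% for 750 to under 1000 kb, 39.9% for 1000 to under 1500 kb and 53.5% for 1500 kb or more, and the last class is rich in tandem families.

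Of the wide intervals, 32 (16.9%) had a Strong boundary at both ends, 99 (52.4%) at 1 end and 58 (30.7%) at neither, and the narrower intervals had 30.2, 49.4 and 20.4%. Deserts had 12, 58 and 50. Tandem family intervals had 5, 13 and 2, the 2 without a Strong end being the Igkv interval and the vomeronasal pseudogenes of chromosome 13. Both scores were under 0.3 in 26 wide intervals (13.8%, against 5.55% of the narrower) and both were 1 or more in 5 (2.65%, against 4.09%). Dpp10, a potassium channel partner in neurons, was the lone gene of a desert of 1990 kb with scores of 0.254 and 0.242, and Cdh18 that of one of 1655 kb with 0.208 and 0.218. The list holds no boundary with a score under 0.2, and the ends of both deserts lay close to that floor. The intervals next to wide ones had a median of 340 kb, against 260 kb next to narrower ones, and 5.82% against 2.56% of neighbours were wide.

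**Figure D5:**
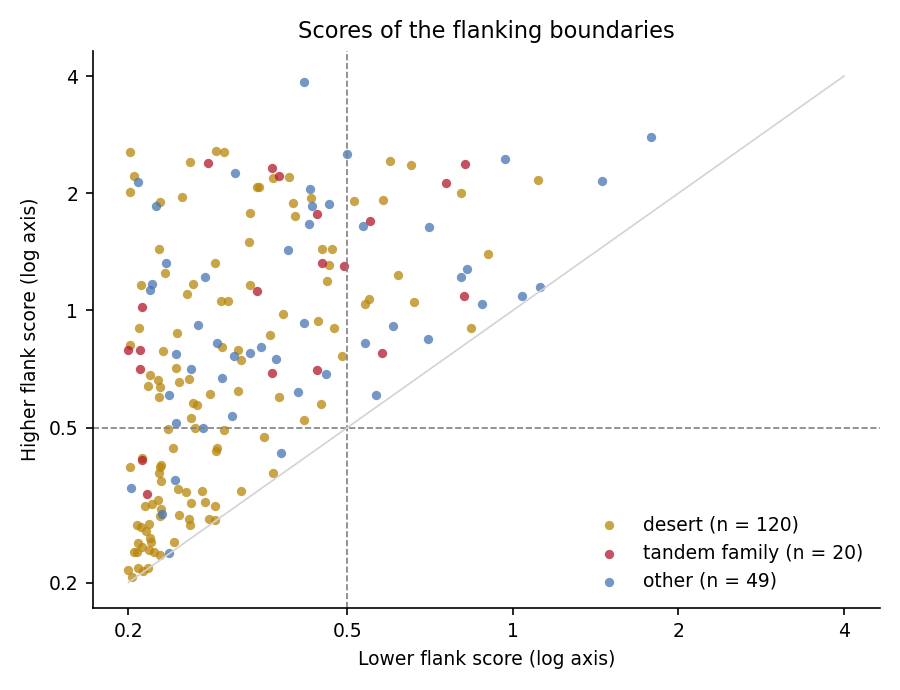
The authors' scores of the 2 boundaries of each wide interval on log axes, the lower score horizontally and the higher vertically, coloured by class. Dashed lines mark 0.5, the limit between Weak and Strong, and the grey line marks equal scores. Of the 58 intervals in the lower left field, with 2 Weak ends, 50 are deserts.

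Genes and CTCF matches were sparser at the flanks of deserts than at other boundaries, and genes were not sparser at those of tandem families. A protein-coding TSS lay within 10 kb of 7.90% of the flanking and 27.6% of the other boundaries, of 1.28% of those beside deserts and of 31.6% of those beside tandem family intervals. The class rules act on the TSSs on the inner side of each flank, so the shares of TSSs by class are in part set by construction. A match to the CTCF core lay within 10 kb of 37.1% and 60.2%, of 31.1% beside deserts and of 50% beside tandem family intervals. Boundaries beside intervals of 750 to under 1000 kb were close to those of wide intervals, with 8.87% for TSSs and 40.4% for core matches. Inside wide intervals the matches numbered 15.4 per sequenced Mb, against 38.0 in narrower ones, a ratio of 2.46. Over autosomes the densities were 15.2 ± 4.38 and 38.2 ± 7.06 per Mb (SD, n = 19 autosomes), and that of wide intervals was lower on all 19. With the stricter consensus they were 1.02 and 2.85 per Mb. Matches were sparsest in deserts, at 11.7 per Mb, and in the tandem family intervals they numbered 44.0 per Mb within 50 kb of a flank and 24.2 beyond 500 kb.

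The difference was larger for the commonest version of the match. CCAGAAGAGGGC made up 57.0% of all core matches, and 99.6% of its copies lay in masked repeats. Per Mb this version numbered 5.93 in wide and 22.0 in narrower intervals, a ratio of 3.71, while matches with all other letters numbered 9.51 and 16, a ratio of 1.68. Outside masked repeats the densities were 6.28 and 11.1 per Mb, a ratio of 1.77. It is the version printed above as nearest to the right flanks of the longest desert, of the longest tandem family interval and of the Mef2c and Ins1 deserts, and to both flanks of the Mup interval. Within 10 kb of a flank, 48 of 103 matches inside wide intervals (46.6%) and 4630 of 8454 inside narrower ones (54.8%) had these letters.

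The direction of the matches was counted where one lay within 10 kb of a flank. A match pointed into the interval if it was on the plus strand at the left flank or on the minus strand at the right flank. The nearest match did so at 81 of 143 flanks of wide intervals (56.6%) and at 4133 of 8288 flanks of narrower ones (49.9%). A match near a shared boundary that points into the interval on its right points away from that on its left. Both directions therefore balance over all intervals by construction, and the share in narrower intervals was nearly fixed in advance. For deserts it was 47 of 77 (61.0%), for tandem family intervals 11 of 20 (55.0%), and for wide intervals with at least 80% unique reads 62 of 108 (57.4%). Only 28 wide intervals had a match within 10 kb at both ends, and both pointed inward in 8 (28.6%), against 709 of 2798 (25.3%) for the narrower.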

How the data were processed

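Each line of the deposited list holds a boundary bin of 5 kb, its class, Strong or Weak, and its score. Per the labels' design text, the authors pooled the contact lists of the replicates and called boundaries on the resulting matrix, on GRCm38. The caller, its window, the aligner and the depth were not given in the sources used here. No contact matrix was used here. The score deposited by the authors has no stated unit and was compared only within this list.

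Intervals ran between bin midpoints of the 7169 autosomal boundaries, in 1-based coordinates. Genes came from GENCODE M21, and a TSS was the annotated 5′ end of a gene. Classes followed the symbol before its first digit, with Gm and Rik names left out. CTCF matches were exact matches to a core of 12 bases, on both strands. Read uniqueness was the share of simulated reads (length 100 bases, 1 per 500 bases of reference) that minimap2 2.31 placed with a mapping quality of at least 30. It measures the reference and not the authors' reads. Python 3.11.15 with numpy 2.4.6, pandas 2.3.3 and scipy 1.17.1 was used, and the counting was checked on simulated data.

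Positions of 1 map are not replicates, so no test was made and no p-value is given. The SD over autosomes and Wilson intervals describe the map and counting error, not animals. The members, classes and lists were chosen with earlier results of these data known. Named by rule were the 10 longest intervals, each tandem family interval, up to 8 members per gene list, the neighbours of the 5 longest deserts, and the 8 genes covering most of an interval. Some genes that the rule names are not reported here. Lone genes outside these lists, the Mup, Mef2c, Cdh11 and Ins1 sequences, the Nr2f2 sequence, and the interval with the highest score were chosen after their values were seen. Alternatives changed the length limit, the boundary class, the X chromosome, gaps, read uniqueness, the class limits, the gene types and the consensus, and left out each autosome in turn.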

Additional observations from a re-analysis of the deposited data

How the results depend on the processing

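A count was taken as kept within 1.5 times, a share within its 95% Wilson interval, and a density, ratio or median score within 1 SD over autosomes. By these rules 54 of 72 values under alternatives were kept, as were all 171 with 1 autosome left out. The rules were wide, with an SD of 3.11 for the TSS density of 3.53 per Mb and of 10.2 for the ratio of 2.64. With at least 80% unique reads, a density of 1.24 and a ratio of 7.32 thus counted as kept. Leaving out 1 autosome could not move the number of wide intervals 1.5 times, since none held more than 21 of them. The number of wide intervals was 366 at a limit of 800 kb, 51 at 1500 kb, 540 between Strong boundaries only, and 100 where the length times the share of unique reads had to reach 1000 kb, an alternative chosen after seeing the data. The share of deserts was 50% at 800 kb, 36.9% between Strong boundaries only, 74.2% with at least 80% unique reads, 76.0% by length times unique share, 0.529% when all gene types counted, 28.6% with no protein-coding TSS allowed and 74.6% with up to 2 per Mb. The share of tandem family intervals was 25.5% at 1500 kb, 1.94% with at least 80% unique reads and 4.00% by length times unique share. The density of TSSs was 15 per Mb for all gene types, the percentage of Strong flanks 53.5% at 1500 kb, and the density of CTCF matches 1.02 per Mb with the stricter consensus. Between Strong boundaries only, the median score was 1.02 and the percentage of Strong flanks has no meaning. Where the alternative does not itself change what is counted, the cause was not tested.

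Leaving out 1 autosome at a time gave 168 to 185 wide intervals, 2.96 to 3.77 TSSs and 15.1 to 15.8 core matches per Mb, 61.5 to 66.3% deserts, 7.87 to 11.9% tandem family intervals, a median score of 0.418 to 0.442 and 42.4 to 45.1% Strong flanks. No paired analysis was possible because both replicates were combined into 1 list of 1 group. The depth is unknown, so a boundary missed for want of contacts cannot be told apart from one that is absent.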
